A study of Mus musculus with 15 samples.

Results

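The genes described here encode the nuclear subunits of respiratory complexes II to V. They were taken from the deposited table as every row whose gene ID belongs to a protein-coding mouse gene named Sdha to Sdhd, Uqcr with any ending, Cyc1, Cycs, Cox5 to Cox8 (and Cox4) followed by the letter a, b or c, or Atp5 with any ending. The rule found 47 of 24454 rows: 4 genes of complex II, 9 of complex III, 1 of cytochrome c, 16 of complex IV and 17 of complex V. Of these, 46 passed the filter on low counts and were tested. The remaining gene, Cox8c, a complex IV isoform gene, had 0 counts in all 15 libraries. Cox4i1 and Cox4i2 of complex IV, and the ATP synthase inhibitor Atpif1, have symbols outside the rule and are given separately.

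Complex II, succinate dehydrogenase, passes electrons from succinate to ubiquinone, and it is the only one of these complexes whose subunits are all encoded in the nucleus. Complex III passes electrons on to cytochrome c, complex IV passes them to oxygen, and complex V, the ATP synthase, uses the resulting proton gradient to make ATP. Each large complex has a few core subunits that carry out catalysis and many small accessory subunits, and neurons depend on this chain for most of their ATP.

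Midbrain RNA was sequenced from BDF1 wild-type (WT) mice and from transgenic (TG) mice that carry an alpha-synuclein transgene under the Thy1 promoter, with 3 libraries in each of 5 groups. The groups were TG mice given 2 mg of carnosine through the nose (TG intranasal), TG mice given 10 mM carnosine in the drinking water (TG drinking water), TG mice without carnosine (TG control), WT mice given 2 mg through the nose (WT intranasal) and WT mice without carnosine (WT control). Mice were 2 months old when treatment started, and it lasted 2 months. Carnosine is a dipeptide of beta-alanine and histidine. The Thy1 promoter drives transgenes in many kinds of neurons, so the TG mice are not a model restricted to dopamine neurons. The labels do not say whether the 3 libraries of a group came from separate mice, so p-values measure only the spread between these samples.

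Libraries held 13202199 to 60542423 counts, of which the 47 genes took 0.941% to 2.21%. Thy1, whose promoter drives the transgene, had 4051, 3297 and 4287 CPM (counts scaled to library size) in TG control and 676, 694 and 533 CPM in WT control libraries, and all TG libraries were above all WT libraries, as labelled. The dopamine neuron markers Th and Slc6a3 ranged from 2.96 to 28.1 and from 0.474 to 39.1 CPM over the 15 libraries, and Pitx3 was below 1 CPM in every one. A single unnamed row held 2.31% to 6.22% of the counts in the 6 WT libraries and TG control 1 and 2, and 0.122% to 0.3204% in TG control 3 and the 6 TG carnosine libraries. This split runs with carnosine in TG mice apart from TG control 3, and with genotype under carnosine, and medians from a fit with a term for it are given beside those results. The pituitary hormone gene Gh was at 557 CPM in TG control 1 and 718 CPM in WT control 1.

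Per kilobase of transcript, the most abundant of the 46 genes was Cox8a, the ubiquitous form of subunit VIII of complex IV, at a mean of 1551 CPM per kb over the 15 libraries. Cox6a1, the ubiquitous form of subunit VIa, followed at 1517 CPM per kb, then Cox6c at 951, Atp5e at 920.2 and Atp5b, the catalytic beta subunit of ATP synthase, at 865 CPM per kb. The ranges of these genes over the libraries overlap (Cox8a 756 to 2891, Cox6a1 731 to 2739, Cox6c 407 to 2126). Overlap of ranges does not show whether their order held within each library, which was not tested. At the low end were Cox6b2, Cox7a1, Cox6a2, Cox8b and Cox7b2, at 15.6, 12.1, 10.9, 4.63 and 1.53 CPM per kb. The highest library of each of these was below the lowest library of every gene above them in the order.

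**Figure D1:**
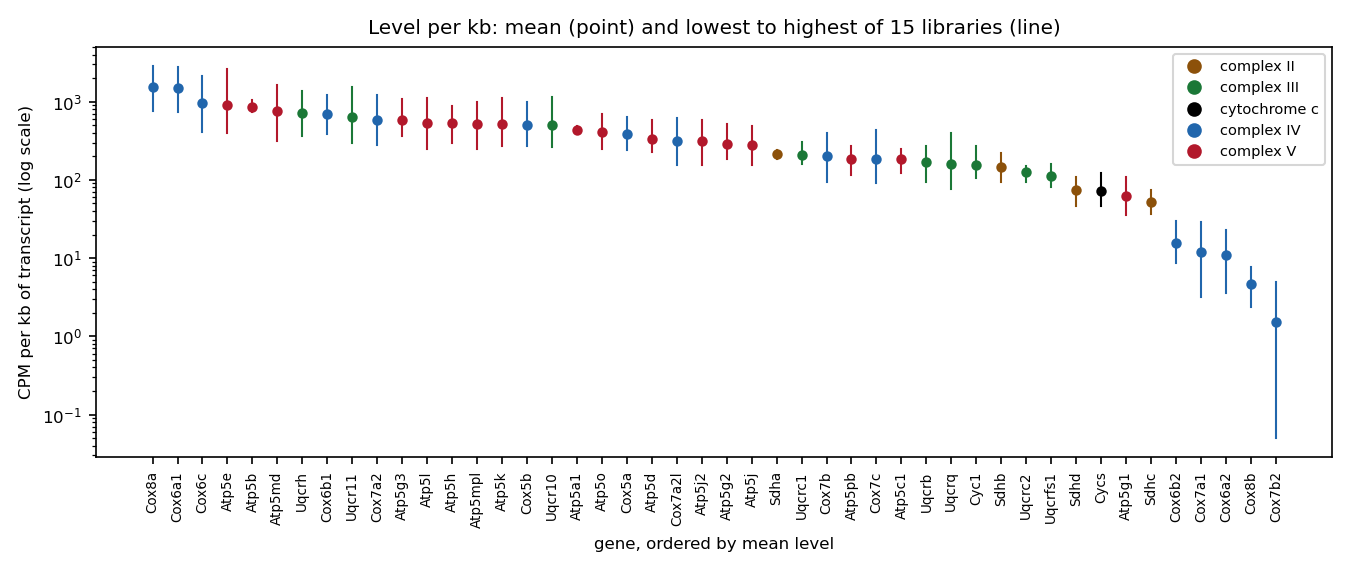
Level of each tested gene in CPM per kilobase of transcript on a log scale, ordered by mean, with the mean over 15 libraries as a point and the lowest to highest library as a line, coloured by complex. The line of Cox7b2 ends at the lower edge of the drawn range because 1 library had 0 counts. Cox8a and Cox6a1 lie at the top, at 1551 and 1517 CPM per kb, and 5 tissue-specific isoform genes of complex IV lie at the bottom, below all others.

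Those low genes are isoforms of complex IV subunits known from other tissues: Cox6a2, Cox7a1 and Cox8b are the heart and muscle forms, and Cox6b2 and Cox7b2 are known from testis, as is Cox8c. Per kilobase, Cox6a2 made up 0.391% to 1.07% of the sum of Cox6a1 and Cox6a2 in the 15 libraries. Cox7a1 made up 0.897% to 2.69% of Cox7a1 and Cox7a2, and Cox8b 0.179% to 0.489% of Cox8a and Cox8b. Cox6b2 made up 1.40% to 3.02% of the Cox6b pair and Cox7b2 0% to 1.63% of the Cox7b pair. Markers of heart and skeletal muscle summed to 25.2 to 50.4 CPM over 9 genes, so that the muscle isoforms and the muscle markers were both low, and the source of either was not tested. Cox8c, at 0 counts, was below the 0.0496 to 0.227 CPM that 3 counts are worth in these libraries, which covers counting error only.

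Subunit c of ATP synthase, which forms the rotating ring in the membrane, is encoded by Atp5g1, Atp5g2 and Atp5g3, whose mature proteins are identical. Atp5g3 gave 58.7% to 66.9% of their sum per kilobase, Atp5g2 26.2% to 34.4% and Atp5g1 6.09% to 7.07%. The order of the 3 genes was the same in every library. The share of Atp5g1 rests on its long transcripts: with transcripts of 596 and 4715 bases linked to RefSeq, its median length was set at 2655.5 bases, and before division by length it gave 19.2% to 21.9% of the CPM.

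The genes moved together from library to library. The first principal component of their log2 CPM held 75.1% of the variance over the 15 libraries, and the median correlation between 2 genes was 0.85 over 1035 pairs, which share library, depth and scaling. The median deviation of the genes from their own means was lowest in TG control 2, at -0.78 on the log2 scale, and highest in WT control 1, at 0.87. TG intranasal 3 stood at 0.53 and TG intranasal 1 and 2 at 0.066 and 0.087, against 0.11 and -0.038 in TG control 1 and 3. The drinking water libraries stood at 0.22, -0.17 and -0.23. WT intranasal libraries stood at -0.089, -0.44 and -0.58, against 0.87, 0.16 and 0.34 in WT control. The pooled SD of such library medians within groups was 0.333.

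**Figure D2:**
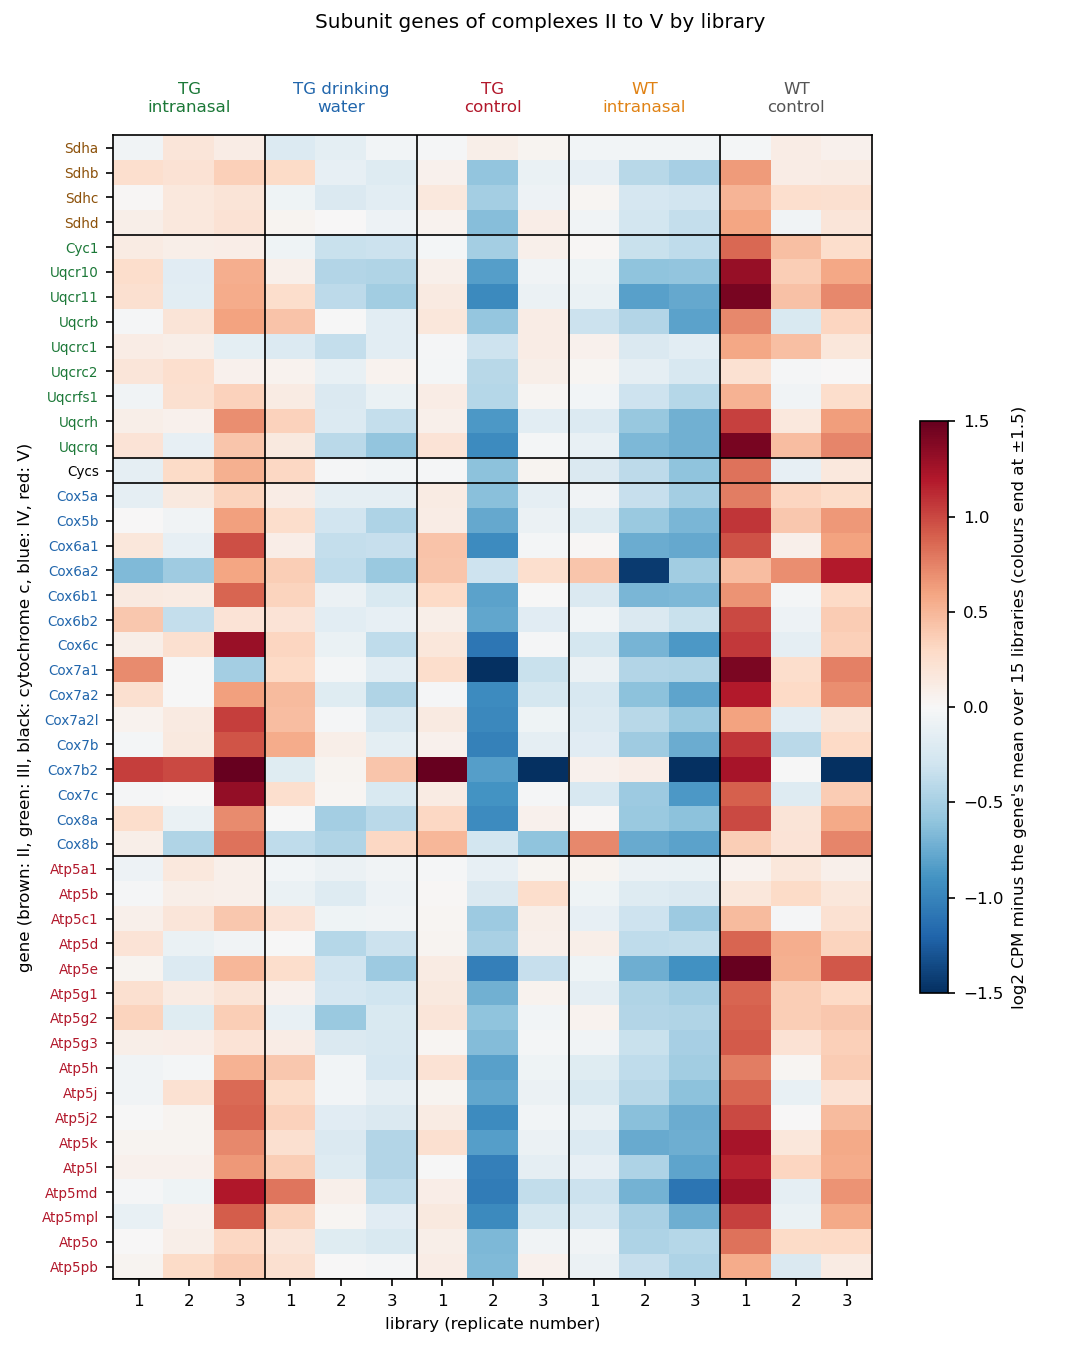
Heat map of the 46 tested genes (rows, by complex) in the 15 libraries (columns, by group), coloured by log2 CPM minus the mean of the gene over the libraries, with colours ending at 1.5 in either direction. Nearly whole columns share a colour: TG control 2 is low, with a median of -0.78, WT control 1 is high, with a median of 0.87, and the rows of Sdha and Atp5a1 stay near 0.

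The genes differed in how far they took part. Over the 15 libraries the SD of log2 CPM was 0.0945 for Atp5a1, the alpha subunit of ATP synthase, and 0.101 for Sdha, the flavoprotein of complex II. It was 0.172 for Atp5b and 0.176 for Uqcrc2, a core protein of complex III. It was 0.726 for Atp5e, the epsilon subunit in the central stalk of ATP synthase, and 0.726 for Atp5md, a small membrane subunit known as DAPIT. Between them lay, for example, the small anchor Sdhc, at 0.262, and the core protein Uqcrc1, at 0.265. Cox7b2 had the highest SD, 1.38, at 0 to 91 counts a library.

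Promoters are shown for 4 of the genes called in the comparisons that follow, so that the elements known for respiratory genes can be seen in place. NRF1 and ETS-family factors such as GABP are known to bind promoters of nuclear respiratory genes. Each run below is 240 bases, 5′ to 3′ on the strand of the gene, ending 11 bases before the RefSeq start of transcription in GRCm38.p6, with the letters gcatgcgc (NRF1) and ccggaag (ETS), read on both strands, in capitals.
Uqcr11 (chr10:80406832-80407071, minus strand): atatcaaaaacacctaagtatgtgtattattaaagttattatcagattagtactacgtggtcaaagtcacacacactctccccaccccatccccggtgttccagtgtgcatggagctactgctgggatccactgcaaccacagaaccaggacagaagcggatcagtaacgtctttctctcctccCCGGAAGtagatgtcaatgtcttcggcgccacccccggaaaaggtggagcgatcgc
Atp5e (chr2:174464112-174464351, minus strand): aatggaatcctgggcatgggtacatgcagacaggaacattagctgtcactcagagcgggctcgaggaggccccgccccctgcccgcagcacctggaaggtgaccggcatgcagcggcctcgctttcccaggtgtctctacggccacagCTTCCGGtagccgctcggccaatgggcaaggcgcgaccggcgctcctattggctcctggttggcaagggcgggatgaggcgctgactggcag
Atp5l (chr9:44920753-44920992, minus strand): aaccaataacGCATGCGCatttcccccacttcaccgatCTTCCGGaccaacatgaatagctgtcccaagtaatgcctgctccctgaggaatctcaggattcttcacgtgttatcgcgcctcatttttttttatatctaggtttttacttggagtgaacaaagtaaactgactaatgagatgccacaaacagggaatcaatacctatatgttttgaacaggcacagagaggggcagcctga
Cox7a2 (chr9:79759864-79760103, minus strand): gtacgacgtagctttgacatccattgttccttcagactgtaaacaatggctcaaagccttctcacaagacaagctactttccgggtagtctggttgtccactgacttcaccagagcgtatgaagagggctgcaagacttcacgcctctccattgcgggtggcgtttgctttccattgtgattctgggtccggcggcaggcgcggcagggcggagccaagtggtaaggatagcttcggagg

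In the runs shown, Uqcr11 and Atp5e hold 1 ETS match each, Atp5l holds 1 match of each kind and Cox7a2 holds neither. The run of Cox7a2 precedes a start that lies within the annotated gene, whose 5′ end is at chr9:79771422, so the sequence before that end is not shown. RefSeq windows of 300 bases, 250 before and 50 after the start, were found for 37 of the 47 genes, in 40 windows. The NRF1 letters were in 8 of the 40 windows (20.0%), against 4.49% of the windows of all tested genes and 2.71% of all 32851 windows. Uqcr11 is among the genes with these letters, which lie outside its run shown above. The ETS letters were in 13 (32.5%), against 14.8% and 8.86%. The SP1 letters gggcgg were in 15 (37.5%), against 58.9% and 35.7%, the YY1 letters aagatggc in 3 (7.5%), against 3.78% and 2.75%, and ccaat in 22 (55.0%), against 37.2% and 37.4%. Each string was searched on its own, and matches of different strings may overlap. A match is a description of the sequence, not of binding.

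In TG control against WT control midbrain, the question is what the transgene changes without carnosine. All 46 fold changes were below 0, with a median log2 fold change of -0.66, against 0.021 over all 15818 genes tested, but no gene passed the test. The medians were -0.42 for complex II, -0.68 for complex III, -0.67 for complex IV and -0.69 for complex V, and Cycs, cytochrome c, had -0.51 (SE 0.24). By the quasi-likelihood test of edgeR, adjusted by Benjamini-Hochberg, 0 of the 46 genes were called (lowest adjusted p 0.125), where 0.0126% of all tested genes were called in either direction. At an unadjusted p under 0.05 there were 29 (63.0%), against 18.1% of all genes. DESeq2 called 11 lower, where it called 1.92% of all genes lower. For 21 of the 46, every TG control library was below every WT control library, which held for 9.07% of all tested genes.

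Atp5e had the lowest value. It had 371, 167 and 267 CPM in TG control and 1114, 491 and 647 CPM in WT control libraries, a log2 fold change of -1.48 (SE 0.34) with an adjusted p of 0.125. The groups did not overlap. Atp5l, subunit g of the membrane part of ATP synthase, had 272, 135 and 248 CPM in TG control and 608, 343 and 403 CPM in WT control libraries, a log2 fold change of -1.05 (SE 0.29) with an adjusted p of 0.142. In complex IV, Cox7a2, the ubiquitous form of subunit VIIa, and Cox5b, the zinc-binding subunit, had log2 fold changes of -1.14 (SE 0.29) and -0.94 (SE 0.26), with adjusted p of 0.130 and 0.143. Cox7a2 had 352, 186 and 297 CPM in TG control and 813, 440.1 and 581 CPM in WT control libraries. For each of these genes TG control 2 was the lowest and WT control 1 the highest library of both groups.

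In complex III, Cyc1, cytochrome c1, had 223, 160.0 and 239 CPM in TG control and 412, 310.0 and 272 CPM in WT control libraries, a log2 fold change of -0.68 (SE 0.18) with an adjusted p of 0.141. Uqcrq, a small accessory subunit, and Uqcr11, another, had -1.11 (SE 0.30) and -1.16 (SE 0.32), each with an adjusted p of 0.141. In complex II, the membrane anchor Sdhc and the iron-sulfur subunit Sdhb had -0.46 (SE 0.16) and -0.49 (SE 0.20), with adjusted p of 0.190 and 0.221, and Sdhd, the other anchor, -0.39 (SE 0.19). Sdha had 615, 663 and 637 CPM in TG control and 609, 669.7 and 651 CPM in WT control libraries, a log2 fold change of -0.0099 (SE 0.13). Its groups overlapped, and so did those of Cox7b2, at -0.027 (SE 1.07). Atp5a1 had -0.13 (SE 0.13), and its 3 TG control libraries were below the 3 WT control libraries by a small margin. The median of the 46 was -0.435 without TG control 2 and -0.449 without WT control 1, and it was below 0 whichever library was left out. With a term for the library split it was -0.73.

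**Figure D3:**
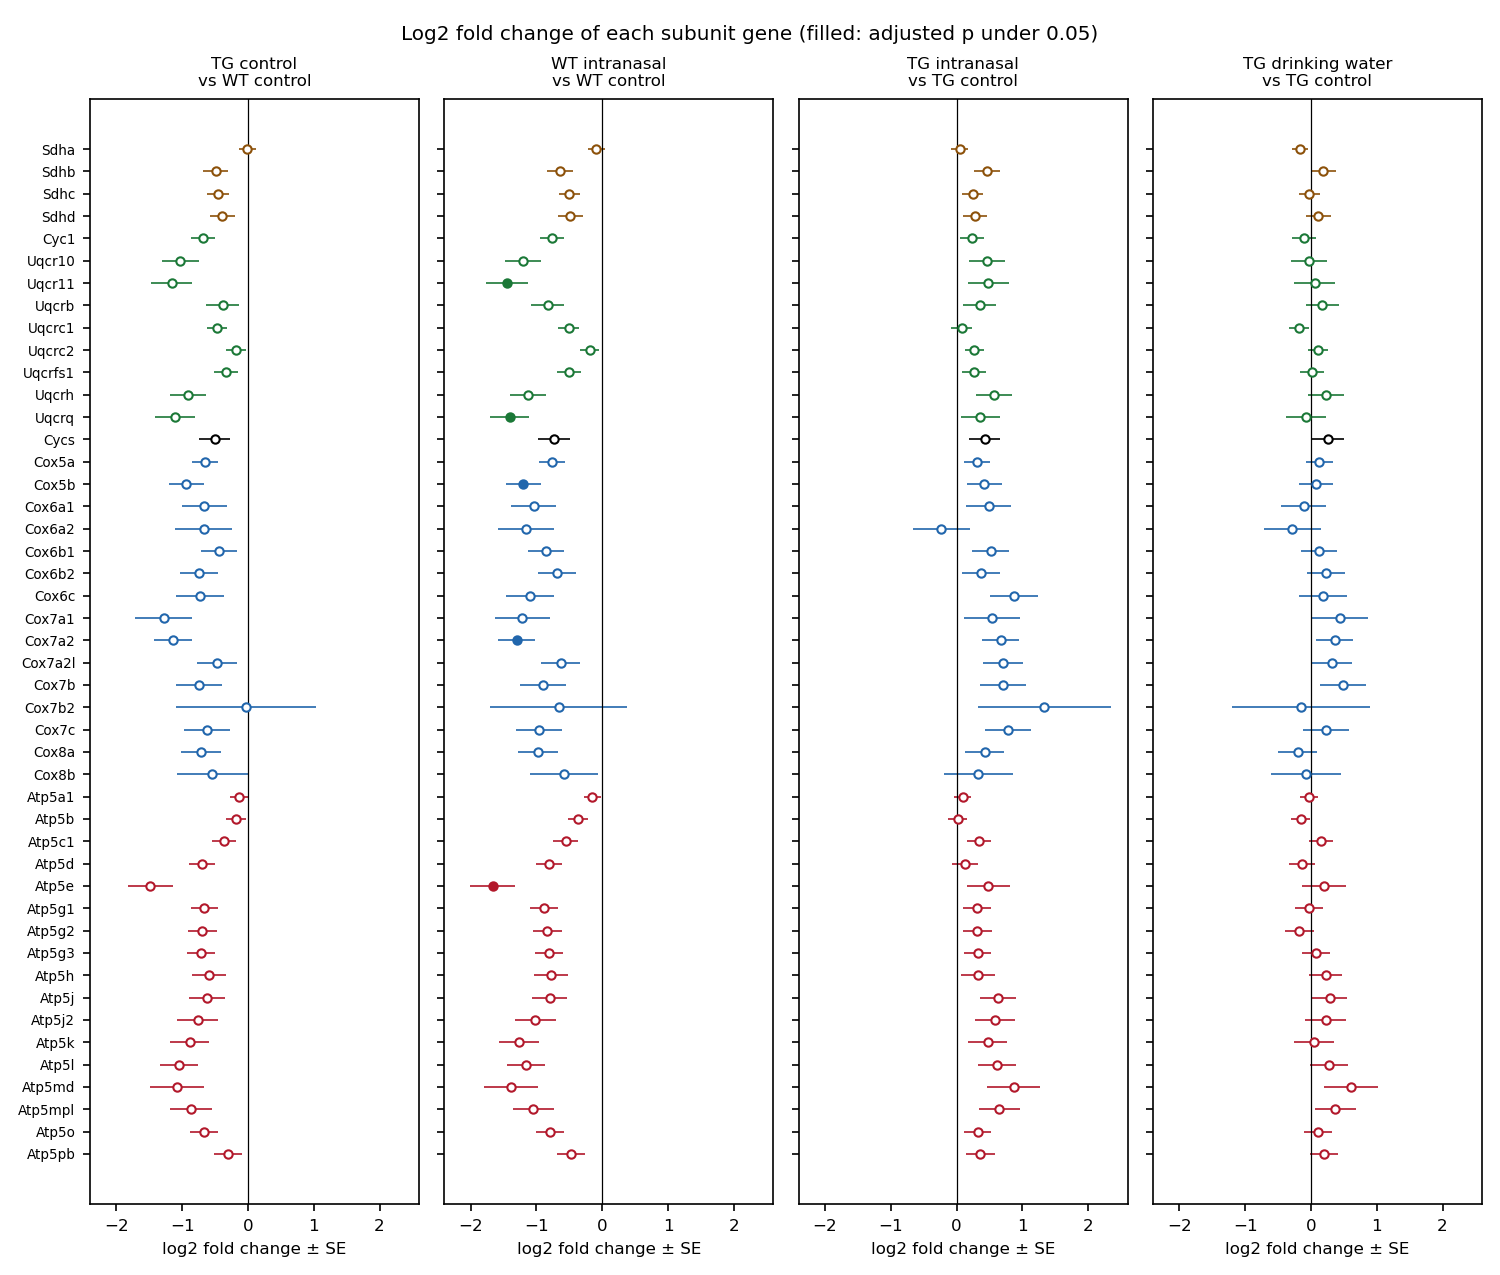
Log2 fold change with SE of each tested gene (rows, by complex) in 4 comparisons (panels), with filled points for an adjusted p under 0.05. The points lie left of 0 in TG control and WT intranasal against WT control, with medians of -0.66 and -0.82, mostly right of 0 in TG intranasal against TG control, with a median of 0.40, and around 0 for the drinking water, with a median of 0.11. The 5 filled points are in WT intranasal against WT control.

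The next comparison asks what intranasal carnosine changes in WT mice. All 46 fold changes were below 0, with a median log2 fold change of -0.82, against 0.024 over all genes tested. The medians were -0.49 for complex II, -0.83 for complex III, -0.96 for complex IV and -0.81 for complex V. By the quasi-likelihood test of edgeR, adjusted by Benjamini-Hochberg, 5 genes fell, all with an adjusted p of 0.0467, where 0.683% of all tested genes were called lower. They were Uqcr11 and Uqcrq of complex III, Cox7a2 and Cox5b of complex IV and Atp5e of complex V. At an unadjusted p under 0.05 there were 40 of 46 (87.0%), against 24.0% of all genes. DESeq2 called 33 lower, where it called 5.82% of all genes lower. For 38 of the 46, every WT intranasal library was below every WT control library, which held for 13.4% of all tested genes.

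Atp5e fell the most. It had 325, 204 and 181 CPM in WT intranasal libraries, against 1114, 491 and 647 CPM in WT control libraries, which is 237 ± 77.5 CPM and 750.4 ± 324 CPM (SD, n = 3 each), and its log2 fold change was -1.66 (SE 0.34). Uqcr11 had 238, 146 and 150.4 CPM in WT intranasal and 686, 348 and 421 CPM in WT control libraries, a log2 fold change of -1.44 (SE 0.32). Uqcrq had 206, 139 and 135 CPM in WT intranasal and 596, 307 and 367 CPM in WT control libraries, a log2 fold change of -1.41 (SE 0.30). The groups did not overlap for any of these 3 genes, and WT intranasal 1 was the highest of its group and WT control 1 the highest of all. Cox7a2 had 303, 234 and 206 CPM in WT intranasal and 813, 440.1 and 581 CPM in WT control libraries, a log2 fold change of -1.30 (SE 0.29). Cox5b had 356, 276 and 252 CPM in WT intranasal and 856, 536 and 636 CPM in WT control libraries, a log2 fold change of -1.20 (SE 0.26). These groups did not overlap either.

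The threshold fell within a run of nearly equal p-values. Uqcr10, a small subunit of complex III, had a log2 fold change of -1.20 (SE 0.28) with an adjusted p of 0.0504, Atp5g1 -0.89 (SE 0.21) with 0.0514, Cyc1 -0.77 (SE 0.18) with 0.0525, and Atp5k, subunit e at the dimer interface of ATP synthase, -1.27 (SE 0.30) with 0.0528. The number called moved with the fit: 0 when only WT intranasal and WT control were fitted, with a term for the library split, with upper-quartile scaling or without the rows that mark the split, 7 with RLE scaling and 17 without the filter on low counts. It was 0 without WT control 1, WT intranasal 2, WT intranasal 3, TG control 3, TG intranasal 1, TG intranasal 2, TG drinking water 2 or TG drinking water 3, and 0 without both WT control 1 and TG control 1. It was 9 without WT control 2 or WT control 3, 20 without WT intranasal 1, 13 without TG control 1 and 30 without TG control 2. Of 16208, 16194, 16044, 16211 and 16213 tested genes, 176, 238, 538, 244 and 748 were called lower in these fits, in the same order. Over all tested genes, RLE scaling called 132 of 15818 lower and the fit without the filter 368 of 19878. The median stayed between -0.994 and -0.608 in those fits.

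Complex II had the smallest median change of the complexes in the fit without offsets for length. Sdhb had 151, 123 and 116 CPM in WT intranasal and 256, 177 and 179 CPM in WT control libraries, a log2 fold change of -0.65 (SE 0.20) with an adjusted p of 0.0810. Sdhc had -0.50 (SE 0.16) and Sdhd -0.48 (SE 0.19), with adjusted p of 0.0947 and 0.137. Sdha had 606, 605 and 603 CPM in WT intranasal and 609, 669.7 and 651 CPM in WT control libraries, a log2 fold change of -0.089 (SE 0.13), and the groups did not overlap. Its difference was small beside the other 3 genes, and it had an adjusted p of 0.716. With the offsets for length and GC content described below, Sdha had -0.143, Sdhb -0.135, Sdhc -0.594 and Sdhd -0.086. The median over all 46 genes was -0.151 in that fit, so complex II did not stand apart there. Among core subunits elsewhere, Atp5a1 had -0.15 (SE 0.13), Uqcrc2 -0.19 (SE 0.15), Atp5b -0.37 (SE 0.15) and Uqcrc1 -0.51 (SE 0.16), while Cyc1, given above, was further from 0, all above an adjusted p of 0.05. Cytochrome c, Cycs, had 189, 167 and 144 CPM in WT intranasal and 386, 200.2 and 244 CPM in WT control libraries, a log2 fold change of -0.73 (SE 0.24) with an adjusted p of 0.0946.

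The other subunits lay between these ends, and none of those that follow passed the test in any comparison. In complex III, Uqcrfs1, the Rieske iron-sulfur protein, had -0.51 (SE 0.18) in WT intranasal against WT control and Uqcrb, a small subunit, -0.83 (SE 0.25). In complex IV, Cox5a had -0.76 (SE 0.20), Cox6b1, the ubiquitous form of subunit VIb, -0.85 (SE 0.28), Cox7c -0.96 (SE 0.35) and Cox7a2l, known for joining complexes III and IV into supercomplexes, -0.63 (SE 0.30). In the central stalk of ATP synthase, the gamma subunit Atp5c1 had -0.56 (SE 0.19) and the delta subunit Atp5d -0.80 (SE 0.20). In its peripheral stalk and membrane part, Atp5o had -0.79 (SE 0.21), Atp5h -0.78 (SE 0.26), Atp5pb -0.48 (SE 0.21) and Atp5j2 -1.01 (SE 0.31). Their adjusted p-values ran from 0.0557 to 0.208, and the WT intranasal and WT control libraries overlapped for Uqcrfs1 and Atp5pb among these 12 genes.

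**Figure D4:**
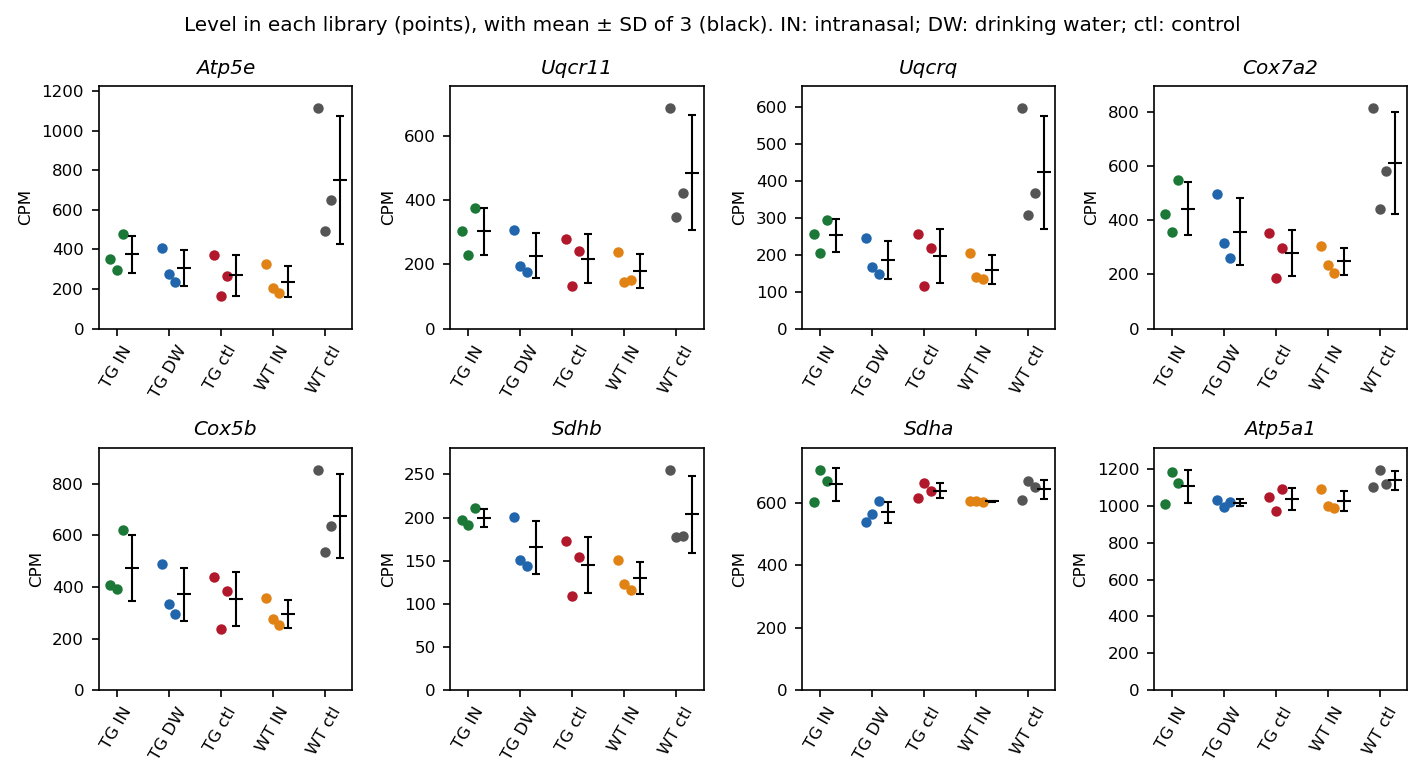
CPM in each library (points, by group) with mean and SD of 3 libraries in black, for the 5 genes called in WT intranasal against WT control and for Sdhb, Sdha and Atp5a1. For Atp5e the WT intranasal libraries lie at 181 to 325 CPM and the WT control libraries at 491 to 1114 CPM, while Sdha lies at 539.8 to 706 CPM over all 5 groups.

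In TG mice given intranasal carnosine, 45 of 46 fold changes were above 0, with a median log2 fold change of 0.40, against -0.0031 over all genes tested. The medians were 0.26, 0.35, 0.52 and 0.34 for complexes II, III, IV and V, and Cycs had 0.43 (SE 0.24). No gene passed: by the quasi-likelihood test of edgeR, adjusted by Benjamini-Hochberg 0 were called, where 0.00632% of all tested genes were called in either direction, and DESeq2 also called 0, where it called 0.12% of all genes. At an unadjusted p under 0.05 there were 8 of 46 (17.4%), against 9.74% of all genes. Every TG intranasal library was above every TG control library for 5 of 46, namely Sdhb, Cyc1, Cox7a2, Atp5g3 and Atp5l, which held for 5.95% of all tested genes.

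Sdhb had 197, 191 and 211 CPM in TG intranasal and 173, 109 and 154 CPM in TG control libraries, a log2 fold change of 0.46 (SE 0.20) with an adjusted p of 0.510, and Sdhd had 0.28 (SE 0.19). Cox7a2 had 423, 355 and 549 CPM in TG intranasal and 352, 186 and 297 CPM in TG control libraries, a log2 fold change of 0.67 (SE 0.28) with an adjusted p of 0.510. For both genes the groups did not overlap, although the nearest libraries were close, with 191 against 173 CPM and 355 against 352 CPM. Cox6c, a small subunit of complex IV, had 463, 515 and 1069 CPM in TG intranasal and 489, 205 and 429 CPM in TG control libraries, a log2 fold change of 0.87 (SE 0.36) with an adjusted p of 0.510. Atp5md had 243, 234 and 566 CPM in TG intranasal and 262, 119 and 190.2 CPM in TG control libraries, with 0.87 (SE 0.41) and an adjusted p of 0.510. In both, TG intranasal 3 stood well above the other 2 libraries of its group, and the groups overlapped.

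Among the other genes with the smallest p of their complex, Atp5j, coupling factor 6 of the ATP synthase stalk, had 0.63 (SE 0.27) and Uqcrh, the hinge protein of complex III, 0.58 (SE 0.27), each with an adjusted p of 0.510, and Uqcrc2 had 0.27 (SE 0.15). The largest log2 fold change was that of Cox7b2, 1.34 (SE 1.01), a gene with 1.24, 1.19 and 2.70 CPM in TG intranasal and 1.78, 0.280 and 0 CPM in TG control libraries, so that it rests on few counts. Cox6a2 was the 1 gene below 0, at -0.23 (SE 0.43). Sdha had 602, 706 and 669.8 CPM in TG intranasal and 615, 663 and 637 CPM in TG control libraries, a log2 fold change of 0.046 (SE 0.13), and its groups overlapped. The median of the 46 was 0.163 without TG control 2 and 0.244 without TG intranasal 3, but 0.597 without TG control 1 and 0.518 without TG intranasal 2. With TG control 3 as the only TG control library, on the same side of the library split as the carnosine libraries, it was 0.275, and with a term for the split it was 0.278.

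With carnosine in the drinking water, the genes of TG mice showed no common direction. Against TG control, 30 of 46 fold changes were above 0 and 16 below, with a median log2 fold change of 0.11, against 0.0050 over all genes tested. By the quasi-likelihood test of edgeR, adjusted by Benjamini-Hochberg and by DESeq2, 0 genes were called, where 0.00632% of all tested genes were called by edgeR and 1.18% by DESeq2 in either direction, and 0 had an unadjusted p under 0.05. Every drinking water library was above every TG control library for 0 of 46 genes, which held for 6.44% of all tested genes. Every one was below for 1 of 46, Sdha, which held for 1300 of all 15818 tested genes. Sdha had 539.8, 564 and 607 CPM in TG drinking water and 615, 663 and 637 CPM in TG control libraries, a log2 fold change of -0.16 (SE 0.13) with an adjusted p of 0.833. The highest value was that of Atp5md, 0.61 (SE 0.41), followed by Cox7b, a subunit of complex IV, at 0.49 (SE 0.35), and Cox7a1 at 0.45 (SE 0.43). Sdhb had 0.19 (SE 0.19), Cox7a2 0.36 (SE 0.28), Atp5mpl, a small membrane subunit of ATP synthase, 0.37 (SE 0.31), Uqcrh 0.23 (SE 0.27), Uqcrc1, a core protein of complex III, -0.18 (SE 0.16) and Cycs 0.26 (SE 0.24). Adjusted p-values for all 46 were at or above 0.785. With a term for the library split the median was -0.014, with 24 of 46 below 0. It was -0.089 without TG control 2 and -0.020 without TG drinking water 1, but 0.30 without TG control 1, 0.200 without TG drinking water 3 and 0.181 without TG control 3.

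Between the routes, all 46 fold changes of TG intranasal against TG drinking water were above 0, with a median log2 fold change of 0.27, against 0.015 over all genes tested. By edgeR's quasi-likelihood test and by DESeq2, 0 genes were called, where edgeR called 0% and DESeq2 0.152% of all tested genes. At an unadjusted p under 0.05 there was 1 gene, Atp5g2, with 258, 181 and 265 CPM in TG intranasal and 189, 139 and 174 CPM in TG drinking water libraries, groups that overlapped, and a log2 fold change of 0.49 (SE 0.22). The highest log2 fold changes were those of Cox7b2, 1.48 (SE 1.00), Cox6c, 0.68 (SE 0.36), and Cox8a, 0.63 (SE 0.30). The median was 0.119 without TG intranasal 3 and 0.433 without TG drinking water 1. With the offsets for length and GC content described below it was 0.098, with 12 of 46 below 0. From 500 to 1000 bases, 860 other genes had a median of 0.25, against 0.35 for the 20 subunit genes of that length.

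Whether the difference under intranasal carnosine depends on genotype was tested as an interaction, the log2 fold change in TG (TG intranasal over TG control) minus that in WT (WT intranasal over WT control). All 46 values were above 0, with a median of 1.19, against -0.045 over all genes tested. By the quasi-likelihood test of edgeR, adjusted by Benjamini-Hochberg, 11 genes were called, each with an adjusted p of 0.0487, where 1.42% of all tested genes were called higher. At an unadjusted p under 0.05 there were 40 (87.0%), against 28.6% of all genes. DESeq2 called 38 higher, where it called 8.52% of all genes higher. The medians were 0.75 for complex II, 1.18 for complex III, 1.52 for complex IV and 1.15 for complex V, and Cycs had 1.16 (SE 0.34) with an adjusted p of 0.0545.

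The called genes of complex V were Atp5e, with 2.15 (SE 0.48), Atp5l, with 1.77 (SE 0.41), Atp5k, with 1.74 (SE 0.42), and Atp5g1, with 1.20 (SE 0.30). Atp5l had 285, 286 and 429 CPM in TG intranasal against 272, 135 and 248 CPM in TG control libraries, and 251, 198 and 158 CPM in WT intranasal against 608, 343 and 403 CPM in WT control libraries. Atp5k had 184, 184 and 295 CPM in TG intranasal against 210.4, 101 and 167 CPM in TG control libraries, and 154, 106 and 108 CPM in WT intranasal against 419, 200.2 and 265 CPM in WT control libraries. Atp5g1 had 187, 172 and 181 CPM in TG intranasal against 175, 95.9 and 163 CPM in TG control libraries, and 144, 116 and 111 CPM in WT intranasal against 289.6, 203 and 195 CPM in WT control libraries. In WT mice the groups of these 3 genes did not overlap, and in TG mice they overlapped for Atp5k and Atp5g1.

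The called genes of complex III were Uqcr11, with 1.92 (SE 0.44), Uqcrq, with 1.77 (SE 0.42), Uqcrh, with 1.71 (SE 0.39), and Uqcr10, with 1.66 (SE 0.39). Uqcrh had 385, 379 and 587 CPM in TG intranasal against 382, 200.0 and 325 CPM in TG control libraries, and 316, 245 and 220.1 CPM in WT intranasal against 742, 406 and 563 CPM in WT control libraries. Uqcr10 had 262, 194 and 319 CPM in TG intranasal against 229, 123 and 211 CPM in TG control libraries, and 209.6, 143 and 145 CPM in WT intranasal against 538, 282 and 327 CPM in WT control libraries. For both, the WT groups did not overlap and the TG groups did. In complex IV, Cox7a2 and Cox5b were called, with 1.97 (SE 0.40) and 1.62 (SE 0.37), and Cox5b had 409, 391 and 622 CPM in TG intranasal against 438, 238 and 384 CPM in TG control libraries, groups that overlapped. In complex II, Sdhb was called, with 1.11 (SE 0.28), from 197, 191 and 211 CPM in TG intranasal against 173, 109 and 154 CPM in TG control libraries, and 151, 123 and 116 CPM in WT intranasal against 256, 177 and 179 CPM in WT control libraries.

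Just outside the threshold, Atp5md had the highest value, 2.26 (SE 0.58), with an adjusted p of 0.0503. Cox7b2, far from the threshold, had 2.00 (SE 1.45) with 0.379. Sdha had 0.13 (SE 0.18), Atp5a1 0.24 (SE 0.19) and Atp5b 0.38 (SE 0.21), the lowest of the 46. The number called was 0 when only the 4 groups of the interaction were fitted or with a term for the library split, 21 with RLE scaling and 31 without the filter on low counts. It was 0 without WT control 1, WT intranasal 2, WT intranasal 3, TG control 2, TG control 3 or any 1 of the 6 TG carnosine libraries. It was 36 without TG control 1, 38 without WT control 2 and 32 without WT intranasal 1. Of 16211, 16208 and 16044 tested genes, 2389, 1999 and 1913 were called in either direction in these fits, in the same order. RLE scaling called 706 of 15818 tested genes and the fit without the filter 1276 of 19878, also in either direction. The median stayed between 0.975 and 1.48 in those fits.

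Transcript length moved with these fold changes. The genes have short transcripts, with a median of 724.75 bases and a range of 360 to 3171, against a median of 2905 bases over the 15081 tested genes with a length, and 44 of the 46 were below that median. GC content was alike, at 50.5% and 50.7%. Over all 15081 genes, Spearman's rho between log2 fold change and length was 0.57 for TG control against WT control, 0.60 for WT intranasal against WT control, -0.48 for TG intranasal against TG control, -0.17 for TG drinking water against TG control and -0.62 for the interaction. Over the 46 genes it was 0.57, 0.64, -0.58, -0.28 and -0.66 in the same order. For TG intranasal against TG drinking water rho was -0.37 over all 15081 genes and -0.35 over the 46. These correlations run across genes, which share libraries and are not independent. In single libraries, rho between the deviation of a gene from its mean and its length was 0.63 in TG control 2 and -0.57 in WT control 1, the libraries where the subunit genes were lowest and highest.

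**Figure D5:**
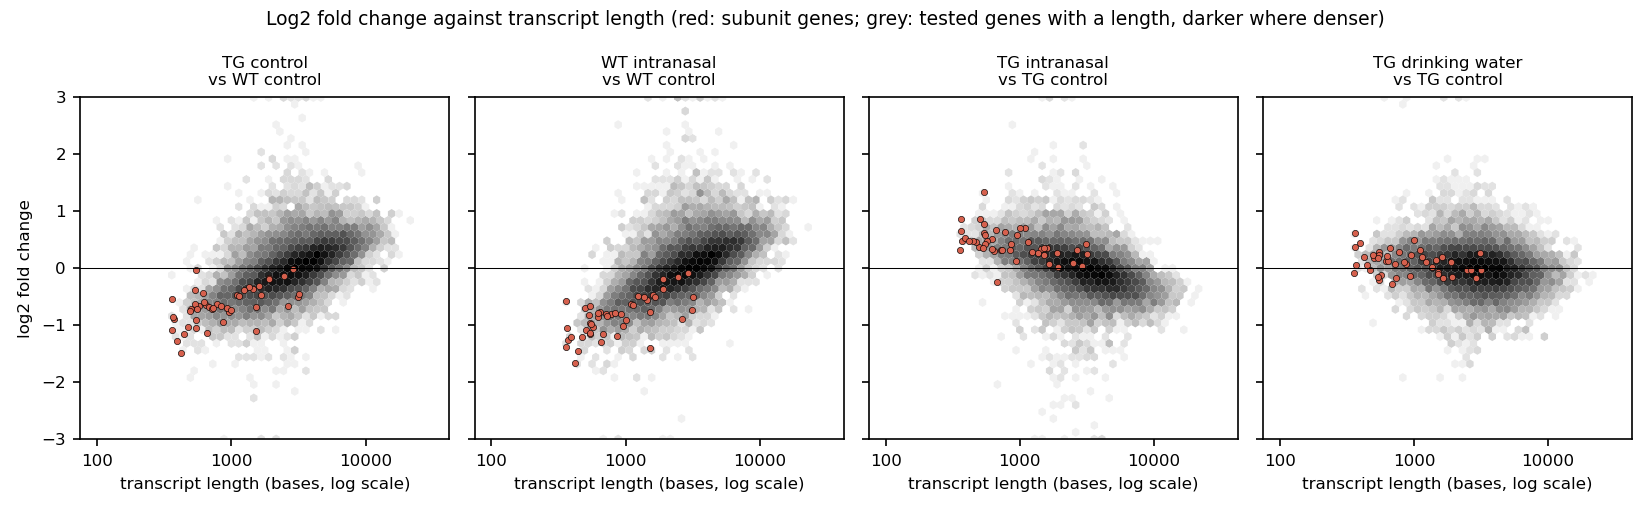
Log2 fold change against transcript length in bases on a log scale for the 46 subunit genes (red) and the tested genes with a length (grey hexagons, darker where denser, values beyond 3 drawn at 3), in 4 comparisons. The red points lie at the short end, within or just below the slope of the grey cloud in TG control and WT intranasal against WT control, where rho over all genes was 0.57 and 0.60, and on a falling slope in TG intranasal against TG control, where it was -0.48.

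Up to 2000 bases, the medians of other genes of the same length had the same sign as those of the subunit genes. In WT intranasal against WT control, the median log2 fold change of subunit genes under 500 bases was -1.22 (9 genes), against -0.95 for 71 other genes. It was -0.91 (20 genes) against -0.68 (860 genes) from 500 to 1000 bases, -0.53 (12 genes) against -0.30 (3294 genes) from 1000 to 2000, and -0.50 (5 genes) against 0.011 (6352 genes) from 2000 to 4000. In TG intranasal against TG control the medians were 0.48 against 0.51, 0.46 against 0.36, 0.31 against 0.18 and 0.24 against 0.0077 for the same ranges. With length and GC content as offsets in the fit, the median over the 46 genes was -0.098 for TG control against WT control, -0.15 for WT intranasal against WT control, 0.057 for TG intranasal against TG control and 0.24 for the interaction. No gene was called in any comparison of that fit.

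How much was left depended on the length given to a gene. The offsets above used transcripts linked to RefSeq; with the median over all protein-coding transcripts, the medians were -0.33, -0.47, 0.27 and 0.78 for the same comparisons, again with 0 genes called. Uqcrq, for example, has protein-coding transcripts of 405, 504 and 1521 bases, of which the longest is linked to RefSeq. Its corrected log2 fold change in WT intranasal against WT control was -1.12, against -1.41 before. For Atp5e, with a transcript of 421 bases, it was -0.58, against -1.66, for Cox7a2 -0.52, against -1.30, for Cox5b -0.61, against -1.20, and for Uqcr11 -0.34, against -1.44. Cycs, with a transcript of 3123 bases, kept -0.77, against -0.73. Atp5g1 had -0.87, against -0.89, with a length set at 2655.5 bases from RefSeq-linked transcripts of 596 and 4715 bases. What made fold changes run with length in these libraries was not tested.

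Among related genes outside the rule, Cox4i1, the ubiquitous form of complex IV subunit IV, had 1913, 1159 and 1126 CPM in WT intranasal and 5395, 2506 and 3390.0 CPM in WT control libraries, and fell. Its log2 fold change was -1.43 (SE 0.32), with an adjusted p of 0.0467 by edgeR's quasi-likelihood test. Its interaction was 1.87 (SE 0.45), with an adjusted p of 0.0487, from 2239, 1577 and 2501 CPM in TG intranasal against 2109, 981 and 1561 CPM in TG control libraries. Neither call held when only the compared groups were fitted, with a term for the library split or with length and GC content as offsets, where its log2 fold change in WT mice was -0.64 and its interaction 0.78. The adjusted p over the alternatives ran from 0.000716 to 0.277 in WT mice and from 0.00245 to 0.296 for the interaction. Cox4i2, the lung form, had 1.57 to 3.96 CPM and was not called. Atpif1, which inhibits ATP synthase when it runs in reverse, had 142, 111 and 108 CPM in WT intranasal and 311, 182 and 209 CPM in WT control libraries, with -0.96 (SE 0.26) and an adjusted p of 0.0647. Its interaction was 1.52 (SE 0.37), with an adjusted p of 0.0487. This call did not hold when only the compared groups were fitted, with a term for the library split or with length and GC content as offsets. With those offsets the interaction of Atpif1 was 0.15 and its log2 fold change in WT mice -0.044. With lengths from all protein-coding transcripts they were 0.93 and -0.56, and neither was called. The 13 mitochondrially encoded subunits were not analysed here.

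Assembly factors, which build these complexes without being part of them, were tested in 37 of 39 cases. In WT intranasal against WT control, 33 were below 0 and 5 of 37 fell, with a median log2 fold change of -0.49, where 0.683% of all tested genes were called lower. They were Coa3, at -1.09 (SE 0.23), Pet100, at -1.59 (SE 0.35), and Fmc1, at -1.16 (SE 0.26), each with an adjusted p of 0.0467, and Uqcc2, at -1.58, and Cox14, at -1.13. Coa3, Pet100 and Cox14 act on complex IV, Uqcc2 on complex III and Fmc1 on complex V. In the interaction 6 were higher, among them Pet100, at 2.40 (SE 0.49), and Coa3, at 1.48 (SE 0.32), with a median over the 37 of 0.90, where 1.42% of all tested genes were called higher. In both comparisons 0 assembly factors were called when only the compared groups were fitted, with a term for the library split or with length and GC content as offsets. Leaving out 1 library gave 0 to 8 called lower in WT mice and 0 to 16 called higher in the interaction. The 8 were called without TG control 2, where 748 of 16213 tested genes were called lower. The 16 were called without TG control 1, where 2389 of 16211 were called in either direction. In TG control against WT control and in TG intranasal against TG control the medians were -0.41 and 0.31, with 0 called by edgeR in both. DESeq2 called 6 lower and 0, where it called 1.92% of all genes lower in the first and 0.12% in either direction in the second. At an unadjusted p under 0.05 by edgeR there were 11 and 6, against 18.1% and 9.74% of all genes.

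Enzymes of the tricarboxylic acid cycle, which feeds the chain with electrons, were closer to 0. Over 13 genes the median log2 fold change was -0.15 in WT intranasal against WT control, -0.076 in TG control against WT control, 0.13 in TG intranasal against TG control and 0.24 in the interaction. By edgeR 0 were called in any of them, with 3, 2, 2 and 5 at an unadjusted p under 0.05. Over all tested genes, 24.0%, 18.1%, 9.74% and 28.6% had an unadjusted p under 0.05 by edgeR, in the same order. DESeq2 called 4 higher in the interaction, where it called 8.52% of all genes higher, and 0 in the others. The 6 carriers and porins of the mitochondrial membranes had medians of -0.30, -0.24, 0.18 and 0.48, also with 0 called by edgeR and with 3, 0, 1 and 4 at an unadjusted p under 0.05, and DESeq2 called 2 in the interaction and 0 in the others. The 13 regulators of mitochondrial gene expression, among them Ppargc1a, Nrf1 and Tfam, had medians of 0.15, 0.13, -0.092 and -0.15, with 0 called by edgeR and with 2, 3, 2 and 2 at an unadjusted p under 0.05. DESeq2 called 1 regulator lower in WT intranasal against WT control, 2 lower in the interaction and 0 in the other 2 comparisons. Of all 15818 tested genes it called 920 lower in the first of these and 1075 lower in the interaction.

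Summed markers of most cell types overlapped between the groups. The 8 oligodendrocyte markers summed to 14115 to 27411 CPM in WT intranasal and 15160.0 to 29598 CPM in WT control libraries, and to 21080.2 to 31081 CPM in TG intranasal and 14484 to 26312.5 CPM in TG control libraries. The 8 neuron markers summed to 4208 to 4313 CPM in WT intranasal and 4104 to 4616 CPM in WT control libraries, and to 3984 to 5440.5 CPM in TG intranasal and 3999 to 4370 CPM in TG control libraries. The 6 cerebellar neuron markers reached 136 CPM in WT intranasal libraries and 34.5 CPM in WT control libraries. The 8 astrocyte markers summed to 6114 to 8880 CPM in WT intranasal and 4949.8 to 6728 CPM in WT control libraries. Those of meningeal fibroblasts, 6 genes, did not overlap, at 107 to 209.9 CPM in WT intranasal and 92.2 to 145 CPM in TG control libraries, against 70.3 to 76.2 CPM in WT control libraries. Endothelium, 7 genes, did not overlap between the WT groups, at 84.8 to 99.2 CPM in WT intranasal and 60.6 to 76.6 CPM in WT control libraries. TG drinking water libraries were apart from TG control libraries in astrocyte markers, at 5060 to 5623 CPM against 6093 to 10707 CPM, and in cerebellar neuron markers, at 33.7 to 108 CPM against 19.0 to 29.4 CPM. Astrocyte markers, at 5786 to 6433 CPM in TG intranasal libraries, were also apart from those in TG drinking water, and cerebellar neuron markers in TG control libraries from the 33.2 to 34.5 CPM of WT control libraries. The part of any of these cells in the results was not tested, and in bulk tissue fewer cells of a type and less RNA per cell cannot be told apart. Many of the subunit genes also have processed pseudogenes, and whether reads were shared with them is not given in the sources used here.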

How the data were processed

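The deposited table holds raw counts, 1 whole number per gene ID and library, with no normalization by the authors that the values show. No source used here names the aligner, the counting program, the build or the strandedness. Per the labels' protocols, RNA was isolated with the mirVana kit as total RNA, and Illumina libraries were made from it. Gene names and promoters came from RefSeq tables of GRCm38.p6, which named 24374 of 24454 IDs, and transcript lengths from GENCODE M21.

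Genes were filtered with filterByExpr, scaled by TMM and fitted in edgeR 4.0.16 (R 4.3.3) with a mean for each of 5 groups over all 15 libraries. The quasi-likelihood test was adjusted over all 15818 tested genes by Benjamini-Hochberg, and a gene was called at an adjusted p under 0.05. CPM uses TMM-scaled totals, and log2 CPM a prior count of 2. The alternatives were DESeq2 1.42.0, RLE and upper-quartile scaling, no filter, compared groups only, a replicate block, a library split term, offsets for length and GC content (loess, span 0.3) and leaving out each library. 4 more were added after seeing the data: TG control 3 alone as TG control, both Gh-rich controls left out, rows marking the split left out, and other transcript lengths. The procedure was tested on simulated data. Genes are named if called in any comparison, among the smallest p of their complex, an isoform, or among the 3 highest fold changes, and the remaining tested genes are given once, for WT intranasal against WT control. The genes and lists were chosen with earlier results of these data known. Ranges of total counts are in the report. Each SE was derived from the log2 fold change and the F statistic of the quasi-likelihood test, so it includes spread between libraries. The bound of 3 counts given for Cox8c covers counting error only.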

Additional observations from a re-analysis of the deposited data

Results flagged for a closer look

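Intranasal carnosine had different log2 fold changes in TG and WT mice for 11 genes by the test of the difference itself (TG intranasal over TG control minus WT intranasal over WT control, edgeR's quasi-likelihood test, adjusted p of 0.0487 each). In complex V the difference was 2.15 for Atp5e, 1.77 for Atp5l, 1.74 for Atp5k and 1.20 for Atp5g1. In complex III it was 1.92 for Uqcr11, 1.77 for Uqcrq, 1.71 for Uqcrh and 1.66 for Uqcr10. In complex IV it was 1.97 for Cox7a2 and 1.62 for Cox5b, and in complex II 1.11 for Sdhb. Over all tested genes, 1.42% were called higher. No subunit gene was called when only the groups of the interaction were fitted or with a term for the library split. The same held without WT control 1, and without each of several other single libraries named above. None of the 11 was called in a fit with length and GC content as offsets either. In that fit the difference was 1.16 for Atp5g1 and 1.30 for Uqcrq. It was 0.75 for Cox7a2, 0.64 for Cox5b, 0.55 for Atp5e and between 0.014 (Atp5k) and 0.41 (Atp5l) for the others. The values of Atp5g1 and Uqcrq rest on the lengths given to them. Atp5g1 was set at 2655.5 bases, from transcripts of 596 and 4715 bases linked to RefSeq. Uqcrq was set at 1521 bases, and its other protein-coding transcripts have 405 and 504.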

How the results depend on the processing

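The count of called genes depended on the fit, and the direction of the medians mostly did not. In TG control against WT control (0 called) DESeq2 called 11. It called 303 of all 15818 tested genes lower. For WT intranasal (against WT control, 5 called) it called 33, with 17 without the filter on low counts and 0 with only the compared groups, the split term, upper-quartile scaling, either length correction, both Gh-rich controls left out or the rows marking the split left out. Over all tested genes DESeq2 called 920 of 15818 lower and the fit without the filter 368 of 19878. Leaving out 1 library gave 0 to 30 called subunit genes. The most were called without TG control 2, where 748 of 16213 tested genes were called lower. In the interaction (11 called) DESeq2 called 38, RLE scaling 21, no filter 31, and the compared groups only, the split term and either length correction 0. Over all tested genes DESeq2 called 1347 of 15818 higher. In either direction, RLE scaling called 706 of 15818 and the fit without the filter 1276 of 19878. Leaving out 1 library gave 0 to 38 called subunit genes. The most were called without WT control 2, where 1999 of 16208 tested genes were called in either direction. The smaller fits also hold fewer libraries, and what made the counts differ was not tested. The medians moved with length and GC offsets to -0.098 for TG control and -0.15 for WT intranasal (both against WT control), 0.057 for TG intranasal (against TG control) and 0.24 for the interaction. With all protein-coding transcripts they moved to -0.33, -0.47 and 0.78 for the first 2 and the last. Uqcrh in TG drinking water against TG control, 0.23, turned to -0.022 with length and GC offsets, -0.000759 without TG control 2 and -0.016 without TG drinking water 1, and leaving out other libraries gave up to 0.429, never with an adjusted p under 0.05. The median of that comparison, 0.11, was -0.039 with those offsets, -0.014 with the split term, and -0.089 to 0.30 with 1 library left out. Same-numbered libraries did not all deviate together: correlations ran from -0.202 to 0.242 over 30 pairs of libraries, 12 of them above 0.1. A library correlated best with its own number in 27 of 60 choices, each among the 3 libraries of another group. Whether same-numbered libraries share a batch or another block cannot be told from these values. With a replicate block 16 subunit genes were called in TG control against WT control, 31 in WT intranasal against WT control and 38 in the interaction, and 0 in the other 3 comparisons. Over all 15818 tested genes, that fit called 531, 1587 and 2598 in either direction in the first 3 comparisons. Without the block these counts were 2, 159 and 367. With 3 libraries a group, genes at few counts such as Cox7b2 are limited by depth.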

Other observations

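Outside the lists' called genes, Ppargc1a, a coactivator known to raise mitochondrial gene expression, had values of the opposite sign to the subunit genes and did not pass the test. It was chosen after its values were seen. Its log2 fold change was 0.51 (SE 0.22) in TG control against WT control, 0.49 (SE 0.22) in WT intranasal against WT control and -0.47 (SE 0.22) in TG intranasal against TG control, with adjusted p of 0.247, 0.193 and 0.510 by edgeR. In the interaction it was -0.96 (SE 0.31), with an adjusted p of 0.0670. The 4458 tested genes with transcripts of 4000 bases or more had medians of 0.29, 0.33, -0.21 and -0.55 in the same order. These signs were also opposite to those of the subunit genes. Whether the values of Ppargc1a run with its transcript length was not tested.

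Dmac2 and Dmac2l, whose older symbols begin with Atp5 but whose current ones do not, were not counted among the genes. Dmac2 had 46.7, 36.5 and 40.9 CPM in WT intranasal and 63.4, 47.6 and 54.1 CPM in WT control libraries, groups that did not overlap, with a log2 fold change of -0.41 (SE 0.15) and an adjusted p of 0.122. Dmac2l had 14.1, 11.8 and 10.7 CPM in WT intranasal and 17.9, 12.01 and 15.1 CPM in WT control libraries, groups that overlapped.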
